A study of Mus musculus with 8 samples.

Results

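The genes described here were 10 components of the TGF-beta signalling pathway: the ligands Tgfb1, Tgfb2, Tgfb3 and Mstn, the receptors Tgfbr1 and Tgfbr2, and the intracellular mediators Smad2, Smad3, Smad4 and Smad7. They were taken from the array by symbol, as every probe whose gene name equalled 1 of these 10 names, out of 37074 distinct names in the array design. The array carried 21 such probes, and 16 of them, from 9 genes, could be tested. Mstn, which encodes myostatin, the brake on muscle mass, had 1 probe, and it was not positive and significant on any of the 8 arrays.

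The samples were cultures of C2C12, an established line of mouse myoblasts, maintained in proliferation medium until transfection, labelled as passage 10, and lysed once the transfection medium had been taken off. In the Pvt1-silenced group, 4 cultures were lipofected with antisense LNA GapmeRs against Pvt1, a long non-coding RNA. In the negative control group, 4 cultures were lipofected with control GapmeRs, so both groups had been through transfection and all cultures came from a single cell line. A GapmeR is a short antisense oligonucleotide that pairs with an RNA and directs its cleavage. Labelled RNA of each culture was hybridised to its own 1-colour array, and the comparison asked how these pathway genes differed after Pvt1 had been silenced.

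TGF-beta ligands are secreted in a latent form and, once freed, bring a type II receptor (Tgfbr2) together with a type I receptor (Tgfbr1), a kinase that phosphorylates Smad2 and Smad3. These join Smad4 and enter the nucleus to act on genes of the extracellular matrix and the cytoskeleton, while Smad7 is induced by the pathway and shuts the receptor down. In skeletal muscle the pathway is known for holding back myogenic differentiation and for driving fibrosis.

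The finding turned on 3 probes in the ligand genes and on the oligonucleotides that were used to silence Pvt1, so their sequences are shown 5′ to 3′. Both Tgfb1 probes belong to NM_011577 (plus strand, build mm9), at chr7:26477408-26477467 for the probe that starts at base 1234 of the transcript and at chr7:26489877-26489936 for the one at base 1955. The first lies in the coding sequence of the latency propeptide, and the second in that of the mature ligand. The Tgfb2 probe at base 2397 of NM_009367 (chr1:188449333-188449392, minus strand) covers the corresponding end of the mature Tgfb2 ligand. Aligned without gaps, it overlapped the Tgfb1 probe at base 1955 over 41 bases, of which 28 were identical (68.3%), and the capitals mark these identical bases.
Tgfb1 probe at 1234: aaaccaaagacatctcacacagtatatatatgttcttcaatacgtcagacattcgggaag
Tgfb1 probe at 1955: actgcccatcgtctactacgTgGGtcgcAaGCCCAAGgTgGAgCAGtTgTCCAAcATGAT
Tgfb2 probe at 2397: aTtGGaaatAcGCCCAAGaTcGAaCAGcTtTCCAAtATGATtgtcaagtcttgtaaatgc
GapmeR Pvt1_1: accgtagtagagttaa
GapmeR Pvt1_3: agtcaacgcttcacat

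The brightest Pvt1 probe had a log2 signal of 9.65, 9.79, 10.31 and 9.70 on control arrays 1 to 4 and of 7.09, 6.69, 7.85 and 6.39 on silenced arrays 1 to 4, a change of -2.86 (SE 0.32, limma adjusted p 0.000682). Spots that were positive and significant made up 58.8% to 62.5% of each control array and 59.8% to 61.0% of silenced arrays 1 to 3, while silenced array 4 was dimmer at 51.6%. Control array 3 also stood apart: of 27181 probes with a value on every control array, it lay below the other 3 by more than 2 on the log2 scale, and apart by Dixon's ratio, at 449 (the other control arrays at 0 to 3), and leaving it out moved the calls over all tested probes from 5269 lower and 1373 higher to 5750 and 1689. Over all 28649 tested probes the median change was -0.19, and 79.3% of the calls were lower in silenced cells. That share was 49.3% after cyclic loess, 49.7% in the authors' series table and 49.0% without masking of dim spots, and cyclic loess moved the median change to 0.02. Of 7 myoblast markers 3 were called lower and none higher: Myod1 by -1.95 (SE 0.26, limma adjusted p 0.0013), Des by -1.35 and Cdh15 by -0.86. Cdh15 was not called without control array 4, or with the replicate number or slide row as a block. Myf5, well above background on no array, changed by 0.94 (limma adjusted p 0.053). It was called higher after cyclic loess (1.19, limma adjusted p 0.00609) and with the slide row as a block (1.30, limma adjusted p 0.03). Pax7 changed by 0.02 and was called higher after cyclic loess (0.39, limma adjusted p 0.0286). The summed level of the list was 16.65 to 16.92 in controls and 16.06 to 16.43 in silenced cells. Of 12 liver markers, the brightest probe of 11 never stood well above background among the controls, Alb included. That of 7 was well above background on every silenced array. Apoa2, among these 7, was so on every control array too and changed by -0.15 (limma adjusted p 0.821). The summed log2 level of the 12 markers was 9.82 to 10.77 in controls and 12.31 to 12.67 in silenced cells. Its part in the results below was not tested. Of 4 tested fibroblast markers Pdgfrb was lower (-1.80, limma adjusted p 0.000538) and Pdgfra higher (0.73, limma adjusted p 0.0469), the latter call being lost in 7 of 8 fits that left out 1 array and with either block. Of 4 tested endothelial and blood markers 1 was called, Cd68, higher by 1.84 (limma adjusted p 0.000799).

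Of the 16 tested probes of the pathway components, 6 were called lower after silencing (adjusted p under 0.05 in limma) and 0 higher. At an unadjusted limma p under 0.05, 7 were lower and 0 higher, and with Bonferroni in place of Benjamini-Hochberg adjustment 0 were called. Over all tested probes, 23.2% were called, 18.4% lower and 4.79% higher. The 6 probes came from 4 genes: Tgfb1, Tgfbr1, Smad3 and Smad4. When each gene was represented by its brightest probe, 2 of 9 genes were called, both lower (Tgfb1 and Tgfbr1), against 20.0% of 19360 genes in either direction, 14.0% lower and 5.99% higher. The median change was -0.05 over the 16 probes and -0.02 over the 9 genes, against -0.09 over all genes. Groups did not overlap for 7 of the 16 probes, against 28.2% of all tested probes. The differences between genes and between probes of a gene were large: changes ran from -3.05 to 0.55.

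**Figure D1:**
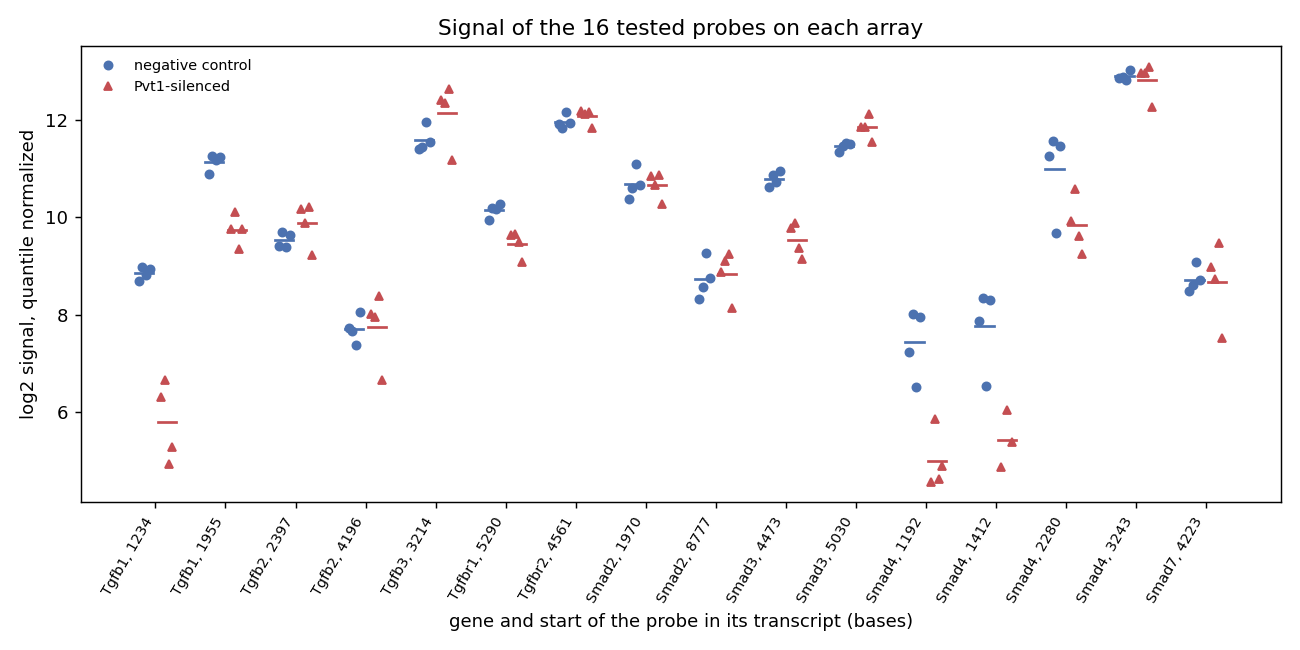
Log2 signal (quantile normalized) of the 16 tested probes on each of the 8 arrays. Circles are negative controls, triangles are Pvt1-silenced cultures, horizontal bars are group means (4 arrays, or 3 for silenced cells at the Smad4 probe at 1412), and levels of different probes are not comparable. The silenced arrays lie below all controls for both Tgfb1 probes, and silenced array 4 is the lowest silenced array for Tgfb3 and Smad7.

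Among the ligands, Tgfb1 fell at both of its probes and was the ligand with called changes. Tgfb1 is the best known profibrotic ligand of the family. The probe at base 1955 gave 10.89, 11.25, 11.18 and 11.24 on control arrays 1 to 4 and 9.76, 10.11, 9.35 and 9.75 on silenced arrays 1 to 4. The probe at base 1234, in the propeptide, gave 8.68, 8.97, 8.81 and 8.93 on the control arrays and 6.30, 6.65, 4.94 and 5.29 on the silenced arrays. At both probes every silenced array lay below every control array. The probe at 1955 changed by -1.40 (SE 0.22, limma adjusted p 0.0024), which left 37.9% of the control level. The probe at 1234 changed by -3.05 (SE 0.36, limma adjusted p 0.00083), which left 12.1%, although it was well above background on only 2 of the 4 silenced arrays. With normexp background correction the change at 1234 was -1.87 and the remaining share 27.4%. That setting adds a constant offset to every spot, which by itself shrinks changes of dim probes. With the row of the array on the slide as a block the changes were -1.43 (limma adjusted p 0.017) and -2.91 (limma adjusted p 0.00722).

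Tgfb2 and Tgfb3, the other TGF-beta isoforms, did not pass the test. The Tgfb2 probe at 2397, which covers the same end of the ligand as the Tgfb1 probe at 1955, gave 9.41, 9.69, 9.38 and 9.63 on the control arrays and 10.16, 9.89, 10.21 and 9.22 on the silenced arrays. Silenced arrays 1 to 3 lay above all controls and silenced array 4 below them. The change was 0.34 (SE 0.25, limma adjusted p 0.365), and the second Tgfb2 probe, at base 4196, changed by 0.05 (SE 0.36, limma adjusted p 0.945). Without masking of dim spots, silenced array 4 was at 9.97 at the probe at 2397, above the controls at 9.24 to 9.50.

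Tgfb3 (probe at base 3214 of NM_009368, chr12:87397804-87397863) gave 11.40, 11.45, 11.95 and 11.54 on the control arrays and 12.41, 12.34, 12.63 and 11.17 on the silenced arrays. Again silenced array 4 alone lay below the controls, and the other silenced arrays lay above them. The change was 0.55 (SE 0.32, limma adjusted p 0.249). Without masking of dim spots, silenced array 4 was at 11.68, among the controls at 11.31 to 11.86. Without silenced array 4, the dimmest array, the Tgfb2 probe at 2397 was called higher by 0.56 (limma adjusted p 0.0381) and Tgfb3 by 0.88 (limma adjusted p 0.0118). After cyclic loess with all 8 arrays, the same probes were called higher by 0.58 (limma adjusted p 0.0124) and 0.70 (limma adjusted p 0.0421).

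Of the receptors, the type I receptor Tgfbr1 was lower and the type II receptor Tgfbr2 did not pass the test. Tgfbr1 was measured by 1 of its 4 probes, at base 5290 of NM_009370 (chr4:47427421-47427480). It gave 9.95, 10.19, 10.17 and 10.28 on the control arrays and 9.63, 9.65, 9.48 and 9.07 on the silenced arrays, without overlap. Its signal in silenced cells was 62% of that in controls, a difference of -0.69 (SE 0.20, limma adjusted p 0.0368). This call was lost when any 1 array other than silenced array 4 was left out, with limma adjusted p from 0.0511 to 0.121, and with the slide row as a block, where the change was -0.68 (limma adjusted p 0.142). The 3 other Tgfbr1 probes never stood well above background, including a second probe of the same transcript at base 1366.

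Tgfbr2, which binds the ligand first, gave 11.91, 11.83, 12.15 and 11.94 on the control arrays and 12.18, 12.11, 12.15 and 11.84 on the silenced arrays (probe at base 4561 of NM_009371 on chromosome 9). The groups overlapped, and the change was 0.11 (SE 0.18, limma adjusted p 0.711).

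The receptor-activated Smads differed from each other. Smad2 was measured by probes at base 1970 of NM_010754 and base 8777 of NM_001252481, which changed by -0.02 (limma adjusted p 0.968) and 0.12 (limma adjusted p 0.82), and both overlapped between groups. Smad3 had probes at bases 4473 and 5030 of NM_016769 (chr9:63495131-63495190 and chr9:63494574-63494633, minus strand), only 557 bases apart. The probe at 4473 gave 10.62, 10.87, 10.72 and 10.95 on the control arrays and 9.77, 9.88, 9.36 and 9.14 on the silenced arrays. The probe at 5030 gave 11.34, 11.47, 11.53 and 11.51 on the control arrays and 11.85, 11.85, 12.12 and 11.55 on the silenced arrays. Every silenced array thus lay below all controls at the first Smad3 probe and above all controls at the second. The first changed by -1.25 (SE 0.22, limma adjusted p 0.00444) and the second by 0.38 (SE 0.19, limma adjusted p 0.189). The probe at 5030 was called higher without silenced array 4 (0.47, limma adjusted p 0.0495) and after cyclic loess (0.51, limma adjusted p 0.00841), in the authors' series table (0.55, limma adjusted p 0.00137) and without masking of dim spots (0.56, limma adjusted p 0.00214). In the latter 2 settings the Tgfb2 probe at 2397 was called higher as well, by 0.61 in each.

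Smad4, the partner shared by all receptor-activated Smads, had 4 tested probes on NM_008540, of which the 2 nearest the 5′ end were called lower and the 2 nearest the 3′ end were not. The probe at base 1192 gave 7.24, 8.01, 6.52 and 7.94 on the control arrays and 4.57, 5.86, 4.62 and 4.89 on the silenced arrays. The probe at base 1412 gave 7.86, 8.35, 6.53 and 8.30 on the control arrays and 4.86, 6.03 and 5.39 on silenced arrays 1, 2 and 4, with no value on array 3. On silenced arrays neither probe stood well above background, so their levels there are bounds: on this scale, controls were at least 2.40-fold higher at 1192 and at least 3.02-fold higher at 1412. The fitted changes were -2.44 (SE 0.40, limma adjusted p 0.00298) and -2.33 (SE 0.47, limma adjusted p 0.00944), and with normexp background correction they were -1.11 and -1.18, or 2.16-fold and 2.26-fold. The constant offset this correction adds to every spot shrinks changes of dim probes by itself. The normexp values therefore cannot decide whether the bounds hold.

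The Smad4 probe at base 2280 gave 11.26, 11.56, 9.68 and 11.47 on the control arrays and 9.93, 10.58, 9.61 and 9.24 on the silenced arrays. Control array 3 lay well below the other controls and inside the silenced range. The change was -1.15 (SE 0.44, limma adjusted p 0.0898), and without control array 3 it was -1.59 (limma adjusted p 0.00706). The probe nearest the 3′ end, at base 3243, gave 12.86, 12.87, 12.81 and 13.02 on the control arrays and 12.95, 12.97, 13.09 and 12.27 on the silenced arrays. Its change was -0.07 (SE 0.22, limma adjusted p 0.863), with silenced array 4 alone below the controls. Without masking of dim spots, that array was at 12.74, among the controls at 12.72 to 12.89.

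Smad7, the inhibitory Smad and itself a target of the pathway, gave 8.49, 8.60, 9.07 and 8.70 on the control arrays and 8.97, 8.72, 9.47 and 7.52 on the silenced arrays at its probe at base 4223 of NM_001042660. The change was -0.04 (SE 0.38, limma adjusted p 0.951), with silenced array 4 again the lowest. Without masking of dim spots, that array was at 8.44, still the lowest silenced array but among the controls at 8.37 to 8.92. The other Smad7 probe, at base 2657, was not tested, being positive and significant on 3 control arrays and on no silenced array.

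**Figure D2:**
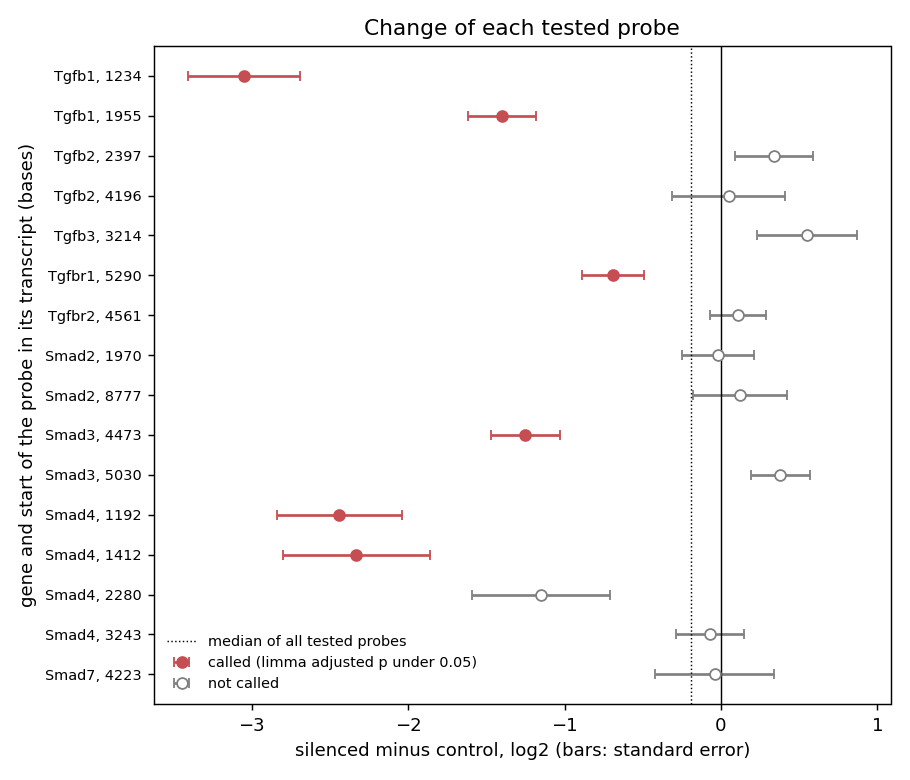
Change of each of the 16 tested probes (silenced minus control, log2), with the standard error of the limma fit as bars. Filled red points were called at a limma adjusted p under 0.05, open grey points were not, and the dotted line marks the median of all tested probes at -0.19. The 6 called probes lie between -3.05 and -0.69, and Smad3 and Smad4 each have called and uncalled probes.

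Since probes of the same gene gave different answers, the probe nearest the 5′ end was compared with the one nearest the 3′ end of the same gene on each array, which was possible for 5 genes. For Tgfb1, Smad3 and Smad4, silenced arrays had less signal at the probe nearer the 5′ end, relative to the other probe. The log2 difference between these probes was larger on every silenced array than on any control array. For Tgfb1 it was -2.21, -2.27, -2.38 and -2.31 on the control arrays and -3.46, -3.46, -4.41 and -4.47 on the silenced arrays, a shift of -1.65. For Smad3 it was -0.72, -0.60, -0.81 and -0.56 on the control arrays and -2.08, -1.96, -2.75 and -2.41 on the silenced arrays, a shift of -1.63. The Smad3 probes start at bases 4473 and 5030, so neither lies at the 5′ end of the transcript. The controls were thus tightly grouped for both genes, and the silenced arrays were more spread.

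For Smad4 the difference was -5.62, -4.86, -6.28 and -5.08 on the control arrays and -8.38, -7.11, -8.48 and -7.38 on the silenced arrays, a shift of -2.38 that includes 5′ values not well above background in silenced cells. Tgfb2 shifted by 0.30 and Smad2 by -0.13, and their groups overlapped. These differences restate the probe values given above, so they are a description with no test. Such a shift was also measured outside the pathway: of 6220 genes with several tested probes, 31.7% had a lower difference in silenced cells without overlap, and the median shift was -0.43.

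**Figure D3:**
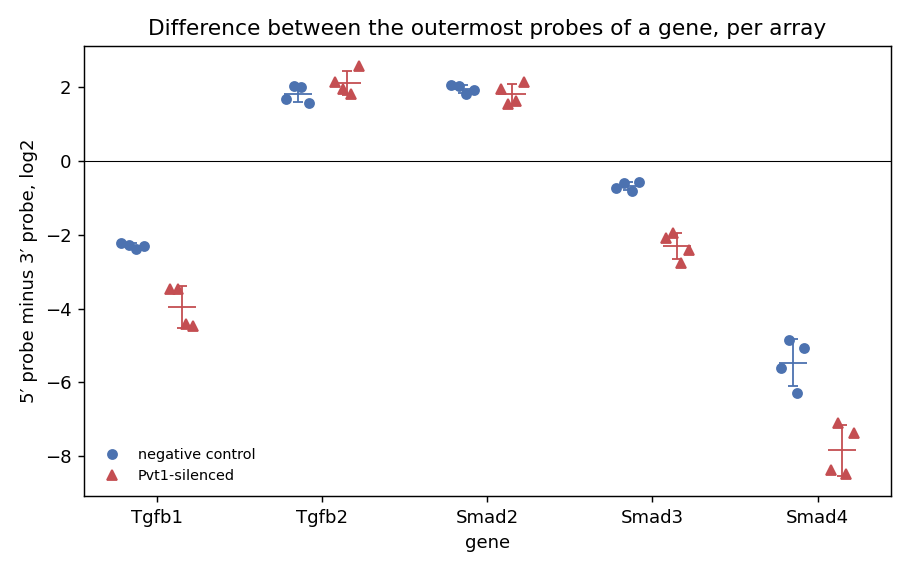
Log2 difference between the tested probe nearest the 5′ end and the one nearest the 3′ end of a gene, on each array. Circles are negative controls, triangles are Pvt1-silenced cultures, and crosses with bars give the mean and SD of 4 arrays. Silenced arrays lie below all controls for Tgfb1, Smad3 and Smad4, and overlap them for Tgfb2 and Smad2.

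The choice of probe therefore set which of these genes counted as changed. By the tested probe nearest the 3′ end, Tgfb1 (-1.40) and Tgfbr1 (-0.69) were called and Smad3 (0.38) and Smad4 (-0.07) were not. By the mean of all tested probes of a gene, Tgfb1 (-2.23, limma adjusted p 0.00141), Tgfbr1 (-0.69, limma adjusted p 0.0422) and Smad4 (-1.27, limma adjusted p 0.0404) were called lower, and Smad3 (-0.44, limma adjusted p 0.146) was not. The Smad4 mean includes the probes at 1192 and 1412, which were well above background on no silenced array. Tgfb1 was called lower at both probes and under each of these choices.

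**Figure D4:**
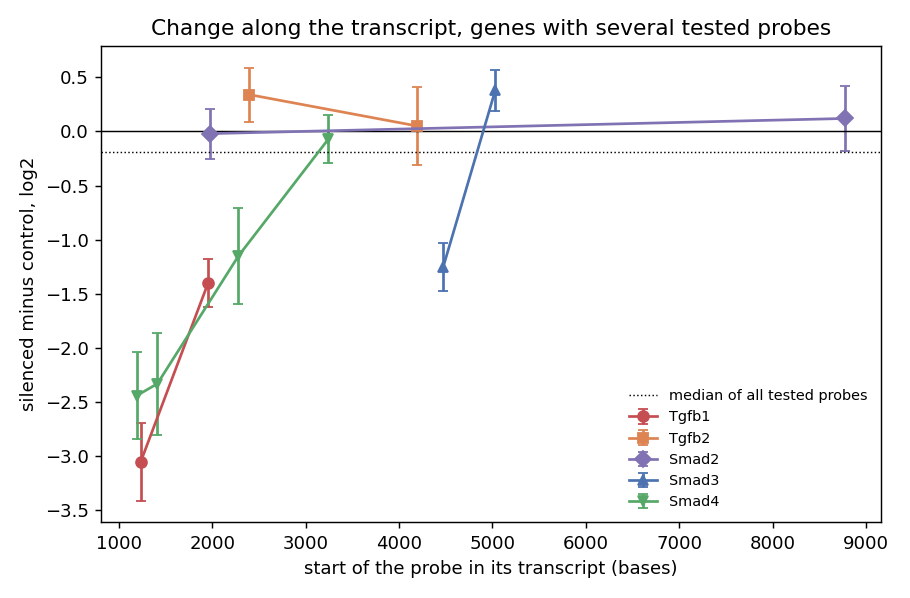
Change (silenced minus control, log2, bars are standard errors) against the start of each probe in its transcript in bases, for the 5 genes with several tested probes. Lines join probes of a gene, and the 2 Smad2 probes are placed by their own transcripts. The change at the 5′ probe is lower than at the 3′ probe for Tgfb1, Smad3 and Smad4, and the Smad4 points at 1192 and 1412 rest on silenced values not well above background.

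The wider pathway was described with 7 lists by role, each gene by its brightest tested probe. Of 102 genes 89 were tested, 20 were called lower (22.5%) and 5 higher (5.62%), and the median change was -0.25. Over all genes 14.0% were lower and 5.99% higher. After cyclic loess 22 of them were called lower and 14 higher, and the authors' series table gave 19 lower and 13 higher. The count of lower genes was 13 without control array 2 or control array 4, and that of higher genes was 2 without any 1 array other than control array 3 and silenced array 4. With the slide row as a block 12 were called lower and 2 higher, and under the methods' t-test, an unequal-variance test adjusted here by Benjamini-Hochberg, 11 and 2.

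Among 15 other ligands of the superfamily, 9 were tested, 3 were lower and 2 higher. Bmp4, a bone morphogenetic protein, changed by -1.78 (SE 0.29, limma adjusted p 0.00316), and Gdf11, the closest relative of myostatin, changed by -1.27 (SE 0.28, limma adjusted p 0.0117). Gdf11 was well above background on only 2 of the 4 silenced arrays, and with normexp background correction its change was -0.65. Inha, the inhibin alpha subunit, changed by -1.14 (limma adjusted p 0.0346) but no silenced array had it well above background. The Inha control mean did not exceed the lowest signal well above background, so no bound on its change can be given. Bmp8a rose by 1.29 (SE 0.39, limma adjusted p 0.0389), with overlap between the groups, and was well above background on only 2 of the 4 control arrays (0.69 with normexp). Of 9 tested other receptors 1 was called, the BMP type I receptor Bmpr1a, at -0.71 (SE 0.21, limma adjusted p 0.0391). Leaving out 1 array at a time ended the calls of Bmp8a and Bmpr1a in 6 of 8 fits each (all but those without control array 3 or silenced array 4) and that of Inha in 5. None of these 3 genes was called with the slide row as a block (limma adjusted p 0.113, 0.154 and 0.0574), and neither Bmpr1a (limma adjusted p 0.0971) nor Inha (limma adjusted p 0.105) with the replicate block. At Acvr2a, an activin type II receptor, control array 3 was at 4.66 against 7.97 to 8.26 on the other controls, and the change of 0.01 became -0.85 (limma adjusted p 0.0301) without it. Neither of the 2 tested other Smads, Smad1 and Smad5 of the BMP branch, was called by its brightest probe, although a second Smad5 probe changed by -1.89 (SE 0.34, limma adjusted p 0.00487).

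None of the 13 genes of latent storage and activation, among them the latent TGF-beta binding proteins and Furin, the protease that cleaves the propeptide, was called in either direction by its brightest probe, although 4 of their 22 tested probes were called lower. Their changes ran from -0.75 to 0.44. The brightest probe of Thbs1, thrombospondin 1, an activator of latent TGF-beta, was at 10.08 on control array 3 against 13.60 to 13.76 on the other controls, and at 12.19 to 12.80 on the silenced arrays. Its change of -0.18 (limma adjusted p 0.894) therefore rested on that array, and without it Thbs1 was called lower by -1.07 (SE 0.22, limma adjusted p 0.00844). Of 8 tested extracellular antagonists 2 were lower and 1 higher. The small proteoglycans Dcn and Bgn, both of which bind TGF-beta, differed in the direction of their brightest probes. Dcn rose by 2.49 (SE 0.24, limma adjusted p 0.000463), from a log2 signal of 8.97 ± 0.34 (SD, n = 4) to 11.47 ± 0.30 (SD, n = 4). Bgn changed by -2.86 (SE 0.67, limma adjusted p 0.0142), and control array 3 stood apart at 9.21 from the other controls at 12.33 to 12.59. Without that array the change was -3.68, while in the authors' series table (limma adjusted p 0.0683) and without masking of dim spots (limma adjusted p 0.0734) Bgn was not called. A second Bgn probe, nearer the end of its transcript, changed by -0.07 (limma adjusted p 0.9). Fstl1, a follistatin-like protein, changed by -0.74 (SE 0.24, limma adjusted p 0.048), a call lost in 6 of 8 fits that left out 1 array (all but those without silenced array 3 or 4). It was also lost with the slide row (limma adjusted p 0.154) or the replicate number (limma adjusted p 0.085) as a block and after the shift to the 75th percentile (-0.54, limma adjusted p 0.122). The other tested Fstl1 probes were called lower as well, by -1.43 and -2.18.

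Of 24 intracellular regulators 6 were lower and 1 higher. Zfyve9, also known as SARA, which presents Smad2 and Smad3 to the receptor, changed by -1.81 (SE 0.40, limma adjusted p 0.0112), but was not called with the slide row as a block (limma adjusted p 0.0524). It was well above background on only 2 of the 4 silenced arrays and changed by -1.07 with normexp background correction, while its second tested probe changed by -1.28 (limma adjusted p 0.00697). Pmepa1, a target of the pathway that feeds back on it, changed by -1.32 (SE 0.19, limma adjusted p 0.00195), the coactivator Crebbp by -1.31 (SE 0.22, limma adjusted p 0.00324) and Stub1, a ubiquitin ligase, by -1.21 (SE 0.22, limma adjusted p 0.00444). In none of these 4 genes did the groups overlap. Ep300, another coactivator, was at 6.56 on control array 3 against 10.20 to 10.47 on the other controls, and its change of -0.82 (limma adjusted p 0.486) became -1.75 (limma adjusted p 0.00266) without that array.

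Of 24 response genes 8 were lower, 1 higher and 15 were not called, with a median of -0.21. The gene called higher was Tgfbi, by 1.44 (SE 0.41, limma adjusted p 0.0322), with overlap between the groups. It was well above background on 1 of the 4 control arrays and 3 of the 4 silenced arrays. With the slide row as a block Tgfbi was not called (limma adjusted p 0.0857). Itga5, the fibronectin receptor subunit, changed by -2.66 (SE 0.25, limma adjusted p 0.000426) and Ctgf, a matricellular growth factor, by -2.04 (SE 0.20, limma adjusted p 0.000475). Acta2, smooth muscle actin, and Postn, periostin, each changed by -1.70 (limma adjusted p 0.00127 and 0.00459), and Postn by -1.05 with normexp. Ctgf and Acta2 did not overlap between groups, and neither did Itga5 and Postn. The study followed fibrosis genes, Tgfb1 and fibronectin (Fn1) among them, by qPCR. In C2C12 myoblasts it reported lower Tgfb1 and other fibrosis genes after Pvt1 silencing. Here Fn1 stood by its brightest probe at 15.62 ± 0.04 on the log2 scale in controls and at 15.61 ± 0.19 after silencing (SD, n = 4 each), a change of -0.01 (SE 0.18, limma adjusted p 0.976). Its 3 other tested probes disagreed: the one at base 7252 changed by -2.08 and was called lower (SE 0.30, limma adjusted p 0.00166), and those at bases 769 and 2699 changed by 0.11 and 0.68 and were not called.

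**Figure D5:**
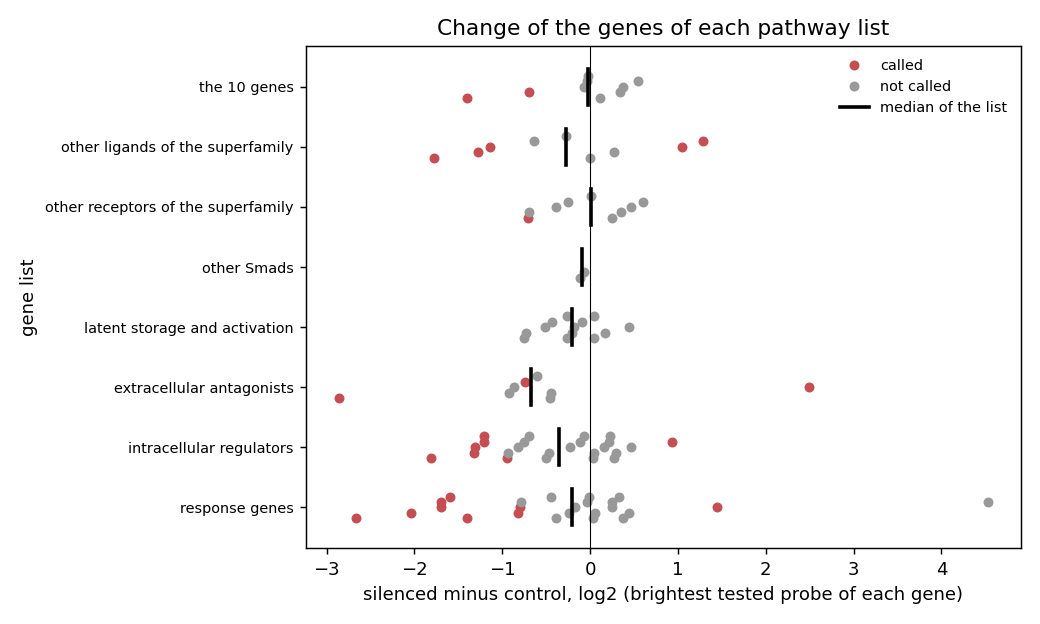
Change of the brightest tested probe of each gene (silenced minus control, log2), by list. Red points were called at a limma adjusted p under 0.05, grey points were not, and the black bar is the median of the list. The 9 tested pathway components have a median of -0.02, and called response genes lie mostly below 0.

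Over the 8 arrays, the probes whose signal was most like that of the Tgfb1 probe at 1955 belonged to NAP111388-1 (Pearson r 0.999), Dnmbp (0.999), Kctd3 (0.998), Srm (0.998) and Plaur (0.997), the urokinase receptor, out of 25107 probes with a value on all arrays. Among the pathway components, r with this probe was 0.98 for the Tgfb1 probe at 1234, 0.96 for the Smad3 probe at 4473, 0.94 for the Smad4 probe at 1192 and -0.80 for the Smad3 probe at 5030. These arrays form 2 groups with different Tgfb1 levels, so the values describe mainly the group difference.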

How the data were processed

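Per the file headers, Feature Extraction 12.0.0.7 wrote the scanner files (the submitters' processing notes name 10.7.3.1). The spot intensity values used were the processed signal, background-subtracted by that program and not normalized between arrays. A further deposited table held intensity values of the authors for 47757 of 59305 spots that were not controls. How it was made is not given in the sources used here, its median was 52.9 on every array, and its log values correlated with the scanner values at 0.995 or more. Flags (coded 0 or 1, other than intensity) were taken from the deposited files. Following the study's methods, spots not positive and significant were masked, log2 values were computed from the intensities the authors deposited, quantile normalized, and averaged per probe. Control spots and outlier spots were left out. Probes with at least 3 of 4 values per group were tested with limma 3.58.1 (R 4.3.3), group as the only term, Benjamini-Hochberg adjustment over 28649 probes. All arrays lay on 1 slide and came from 1 scan, but the slide rows were not balanced: row 1 held 3 control arrays and 1 silenced array, and row 2 held 1 and 3.

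A probe not well above background on a whole group got a bound against the lowest signal well above background. No bound was given where the mean of the other group did not exceed that signal, as at Inha. Genes were named by rule: all 10 components with every probe, the called genes with the 4 largest changes of each list, Fn1, and the 5 probes most like Tgfb1. Acvr2a, Thbs1, Ep300 and Myog were named outside this rule, after their values on control array 3 were seen. Tgfbi, Myf5, Pax7 and Apoa2 were also named outside it, as exceptions within their lists. The permutation test planned for differences between probes of a gene is not given, since the same probe values prompted it. The members and lists were chosen with earlier results of these data known. Gene names and coordinates (mm9) are those of the files. No genome of that build was used, so exons and UTRs were not determined except for the 3 printed probes, whose coding frame is open. Replicates are labelled as biological. The number of arrays limits precision. Alternatives covered scaling (cyclic loess, a shift of arrays to their 75th percentile), normexp background correction (offset 50), that deposited table, stricter and no masking, the replicate number or slide row as a block, a robust trended prior, the methods' t-test (unequal variance, with Benjamini-Hochberg adjustment, which the study does not state for it), Bonferroni adjustment, each array left out, and other choices of probe. The limma fit was checked on simulated data. Figures were drawn with matplotlib 3.10.9.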

Additional observations from a re-analysis of the deposited data

Results flagged for a closer look

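In 6 of 87 groups of 4 arrays examined, 1 array stood apart from the other 3 by Dixon's ratio, which chance gives in about 1 of 20 groups. On control array 3, the Smad4 probe at 2280 was at 9.68 against 11.26 to 11.56 (ratio 0.839), Bgn at 9.21 against 12.33 to 12.59 (ratio 0.921) and Myod1 at 12.81 against 13.57 to 13.66 (ratio 0.891). On silenced array 4, Bmpr1a was at 10.53 against 11.17 to 11.19 (ratio 0.972) and Fn1 at 15.34 against 15.68 to 15.73 (ratio 0.864). On control array 1, Pdgfrb, a fibroblast marker, was at 12.30 against 12.51 to 12.52 (ratio 0.962). Over the whole array, 2 arrays stood apart more often than the others. Among all tested probes with 4 values in a group, the share at which an array stood apart was 5.05% for control array 3 (0.327% to 1.55% for the other controls) and 7.87% for silenced array 4 (0.131% to 0.255% for the other silenced arrays). Among the genes of the lists, control array 3 lay below the other controls at 9, and 5 of these were called without it: Acvr2a, Thbs1, Ep300, Bgn and Myod1, of which the former 3 were not called with all arrays. At Myog it was at 4.96 against 8.17 to 8.41. The cause was not tested.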

How the results depend on the processing

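The called changes of both Tgfb1 probes, of the Smad3 probe at 4473 and of the Smad4 probe at 1192 kept their direction and, after Benjamini-Hochberg adjustment, their call under every alternative that gave a value. The Smad4 probe at 1412 lost its call under the methods' t-test alone (adjusted p 0.0568), and the Tgfbr1 call held in 7 of 18 alternatives. Of the brightest probes, 1 gene (Tgfb1) was called lower with the replicate block, with the slide row as a block, with a robust trended prior and under the methods' t-test, and 1 to 2 genes when an array was left out. Masking spots not well above background left 3 member probes called lower, since both Smad4 probes at 1192 and 1412 and the Tgfb1 probe at 1234 could not be tested. Probes called higher numbered 3 after cyclic loess, 2 in the authors' series table, 2 without masking of dim spots and 0 to 3 when an array was left out (3 without silenced array 4), and the counts of genes by their brightest probe were the same. In the pathway lists, 12 genes were called lower with slide row in the fit and 11 under the methods' t-test, and 13 to 26 when an array was left out. Genes called higher there numbered 14 after cyclic loess, 13 in the authors' series table, 13 without masking, 3 with the stricter mask, 2 with the slide row, 2 under the methods' t-test and 2 to 7 when an array was left out.

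Of the 10 member probes that were not called, 5 changed sign under some alternative, and so did Fn1. The Tgfb2 probe at 4196 was at -0.03 after the shift to the 75th percentile, -0.05 with the stricter mask and -0.17 to 0.41 when an array was left out. The Smad2 probe at 1970 was at 0.14 after cyclic loess, 0.00 with normexp, 0.19 in the authors' series table, 0.20 without masking, 0.05 with the slide row and -0.12 to 0.12 when an array was left out. The Smad2 probe at 8777 ranged from -0.02 to 0.35 when an array was left out. The Smad4 probe at 3243 was at 0.04, 0.11, 0.08 and 0.10 under the shift, cyclic loess, the series table and no masking, and at -0.16 to 0.12 when an array was left out. Smad7 was at 0.29, 0.29, 0.28 and 0.06 under cyclic loess, the series table, no masking and the slide row, and at -0.31 to 0.34 when an array was left out. Fn1 was at 0.13, 0.06, 0.04, 0.07 and 0.04 under the shift, cyclic loess, the series table, no masking and the slide row, and at -0.05 to 0.08 when an array was left out.

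The shift between 5′ and 3′ probes was -1.82 to -1.48 for Tgfb1, -1.74 to -1.48 for Smad3 and -2.65 to -2.16 for Smad4 when an array was left out. Replicate numbers did not pair the arrays: same-numbered arrays correlated at -0.0434, 0.1895, 0.2210 and 0.0566 over deviations from group means, and in 2 of the 4 numbers another number correlated better. The replicate block lowered the calls over all probes from 6642 to 1023 higher and 3994 lower, and left 5 member probes called lower. The slide row as a block lowered them further, to 534 higher and 2573 lower. Normexp background correction brought the changes of Bmp8a to 0.69, Gdf11 to -0.65, Inha to -0.45, Zfyve9 to -1.07 and Postn to -1.05. The offset it adds to every spot shrinks changes of dim probes by itself. The series table gave Inha -2.83. A supplementary figure legend of the study states an unequal-variance t-test for these arrays, without a correction. It is called the methods' t-test here, although the methods section names no test for these arrays. Its values here are Benjamini-Hochberg adjusted. Without adjustment, an alternative chosen after seeing the data, it called 6 member probes lower and 1 higher, and 28 pathway genes lower and 9 higher. Bonferroni adjustment of the limma p, also chosen later, left 0 member probes and 0 member genes called, and 1 pathway gene lower and 1 higher. Under the methods' t-test after adjustment, of the genes named by rule, Zfyve9 (adjusted p 0.0624), Bmpr1a (0.0845), Pdgfra (0.0937), Fstl1 (0.122), Bgn (0.133), Bmp8a (0.137) and Inha (0.141) were not called, and neither was Tgfbr1 (0.0583). The cause of these changes was not tested. The brightest Pvt1 probe kept its call under the alternatives that gave a value. Dim 5′ probes limit the Smad4 values to bounds.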
